A study of Homo sapiens with 3 samples.

Results

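The genes described here encode the alpha chains of the collagens. Members were the genes whose probe sets on the array carry exactly 1 annotated symbol of the form COL, a number, A and a number. This gave 43 genes, measured by 112 probe sets, of 19775 genes and 41091 single-symbol probe sets in all. Each gene was read from its brightest probe set, judged by mean log2 signal across all lines. A high signal in 1 line raises that mean, so the choice is not independent of differences between lines. By the type of assembly the chains form, 11 genes were fibrillar, 6 belonged to type IV of basement membranes, 10 were FACITs (fibril-associated collagens with interrupted triple helices) and 16 were of other types.

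Total RNA came from 3 stable derivatives of HT1080, an established human fibrosarcoma line. The RECK line carried a RECK expression vector, and the RECK/4NQ line carried the same vector for a RECK protein with 4 asparagines, sites of N-linked glycans, changed to glutamine. The Zeo line was mock-transfected. All lines were kept in 10% fetal calf serum with 50 µg/mL Zeocin, the selection drug, and whether each line was 1 clone or a pool is not stated in the labels. There was 1 array per line and no replicate, so no value below has an SD or a p-value, and the transfected gene cannot be told apart from anything else that set the lines apart.

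Collagens are trimers of alpha chains wound into a triple helix, which needs a glycine at regular steps along the chain. Procollagen chains are hydroxylated, glycosylated and folded in the endoplasmic reticulum, secreted, trimmed of their propeptides and cross-linked. Fibrillar collagens build the fibrils of connective tissue, type IV builds the sheet of basement membranes, and FACITs sit on fibril surfaces. RECK, a membrane-anchored glycoprotein, is known as an inhibitor of the metalloproteinases that degrade this matrix.

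The values are MAS5 signals, a linear intensity per probe set. Probe sets differ in brightness for the same amount of RNA, so signals are compared between lines and not between genes. A floor of 12.2, taken at percentile 40 of all signals, replaced every signal below it, and log2 ratios were taken after that. Genes are called higher or lower where the 2 signals were at least 2-fold apart, or where 1 lay under the floor and its counterpart reached 24.5, in which case the fold is a lower bound ("at least"). As an error scale, a ratio is also given in local spreads, the robust spread of ratios among the 1000 genes nearest in level, counted from their median. That spread holds real differences as well as noise.

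The arrays held 14609 genes at or above the floor in RECK, 14359 in RECK/4NQ and 15047 in Zeo. Among the 14289 genes whose mean level reached the floor, RECK over Zeo had a median log2 ratio of -0.20, RECK/4NQ over Zeo one of -0.12, and RECK over RECK/4NQ one of -0.063. Folds are given as deposited, and log2 ratios also relative to these medians where stated. The brightest RECK probe set read 387 in RECK, 442 in RECK/4NQ and 264 in Zeo, with log2 ratios over Zeo of 0.55 in RECK and 0.75 in RECK/4NQ, neither past 2-fold. The other RECK probe sets were dim and disagreed. In RECK, RECK/4NQ and Zeo, 1 read 21.0, 19.8 and 21.7 and another 2.08, 11.3 and 26.2. A further 2 were lowest in Zeo, at 18.2, 12.4 and 11.2 and at 17.9, 25.1 and 5.64. The last was past 2-fold in RECK/4NQ over Zeo, as a bound with a log2 ratio of 1.04. The probe set at 26.2 in Zeo went the other way, past 2-fold lower in both transfected lines, as bounds with a log2 ratio of -1.10. Which bases of the vector's transcript these probe sets match was not analysed here. All 8 mesenchymal markers listed for a fibrosarcoma line reached the floor in mean level, among them VIM, the intermediate filament vimentin, at 10704 in RECK, 10611 in RECK/4NQ and 10307 in Zeo. Of 5 epithelial markers 4 were below the floor on all arrays, and CDH1, epithelial cadherin, was at 7.75 in RECK, 15.6 in RECK/4NQ and 0.946 in Zeo. The mesenchymal markers S100A4 and CALD1 were themselves past 2-fold in RECK over RECK/4NQ, with S100A4 at 116.5 in RECK and 57.6 in RECK/4NQ and CALD1 at 144 and 64.2, and their part in the collagen values was not tested. Of the measured markers of other cell types, 1 of 4 endothelial, 1 of 3 leukocyte, 2 of 4 chondrocyte, 1 of 3 osteoblast and 2 of 3 smooth muscle genes reached the floor in mean level, and none passed 2-fold in any comparison.

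Collagen transcripts were higher in RECK than in RECK/4NQ for 6 of 43 members, lower for 2 and not past 2-fold for 35. The 6 were COL5A1, COL5A3, COL4A5, COL4A6, COL18A1 and COL26A1, and the 2 were COL15A1 and COL22A1. Among all 19775 genes 5.77% were higher in this comparison and 4.48% were lower, beside 14.0% and 4.65% of collagen genes. Against Zeo, 5 members were higher in RECK (COL5A1, COL4A5, COL16A1, COL18A1 and COL26A1), 2 were lower (COL4A4 and COL15A1) and 36 were not past 2-fold, where 4.03% of all genes were higher and 6.71% lower. In RECK/4NQ none was higher than in Zeo, 6 were lower (COL1A2, COL4A4, COL4A6, COL5A1, COL5A3 and COL19A1) and 37 were not past 2-fold, beside 2.82% of all genes higher and 7.14% lower. Among the 29 members whose mean level reached the floor, 5 were higher and 2 lower in RECK than in RECK/4NQ, beside 7.05% and 5.70% of all such genes. For RECK over Zeo these counts were 4 and 2, beside 4.65% and 8.01%, and for RECK/4NQ over Zeo 0 and 5, beside 3.46% and 8.61%. Any pair of these comparisons shares an array, so their values are given side by side and not as separate observations.

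The family as a whole stayed near the other genes. Over those 29 members, the median log2 ratio lay 0.069 above that of all genes in RECK over Zeo and 0.071 above it in RECK over RECK/4NQ. In RECK/4NQ over Zeo the difference was -0.040. With each array centred on its median, 6 collagen genes were higher and 2 lower in RECK than in Zeo. The shares of all genes were 5.06% and 4.87%. For RECK/4NQ over Zeo, 1 was higher and 4 lower, beside 3.90% and 4.94%. For RECK over RECK/4NQ, 6 were higher and 2 lower, beside 5.79% and 4.88%. Quantile normalisation gave 1 higher and 5 lower for RECK/4NQ over Zeo, beside 3.94% and 4.64%. With the probe sets of each gene averaged instead, 3 members were higher and 2 lower in RECK than in RECK/4NQ, beside 3.61% and 2.56%.

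**Figure D1:**
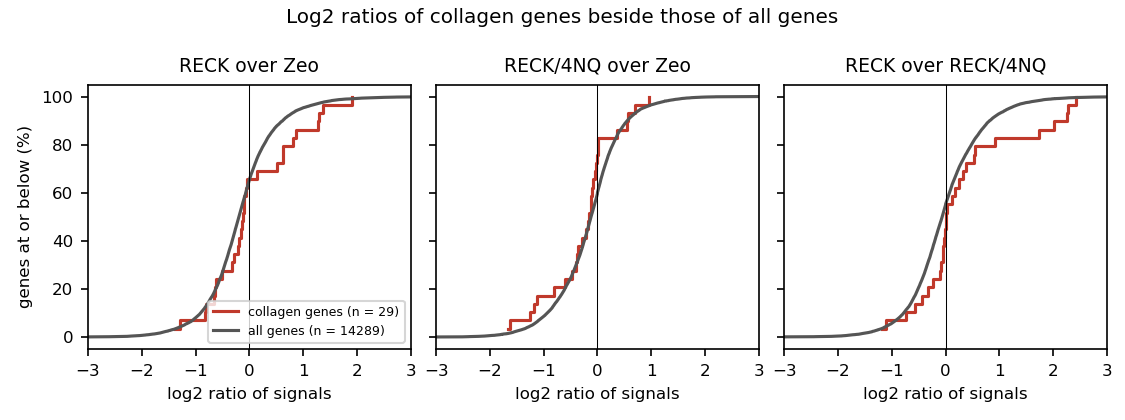
Cumulative share of genes (vertical axis, percent) by log2 ratio of MAS5 signals (horizontal axis) in each comparison, for the 29 collagen genes and the 14289 genes of all kinds whose mean level reached the floor. The collagen curve lies near that of all genes in the middle and, for RECK over RECK/4NQ, has a tail of 5 genes with log2 ratios between 1.74 and 2.42.

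Of the 43 members, 22 reached the floor on all arrays, 9 on 2 arrays, 4 on 1 array and 8 on none. The last group held COL6A5, COL8A1, COL9A1, COL9A3, COL10A1, COL21A1, COL23A1 and COL24A1. By the probe sets read for these genes, the highest signal was 11.8, that of COL10A1 in RECK. Another COL10A1 probe set, dimmer in mean log2 signal, read 19.6 in RECK, 2.19 in RECK/4NQ and 6.82 in Zeo. It was not past 2-fold. Signals below the floor do not show that a transcript was absent. Among all genes, 14.5% were below the floor on every array and 62.8% were at or above it on all, beside 18.6% and 51.2% of collagen genes.

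**Figure D2:**
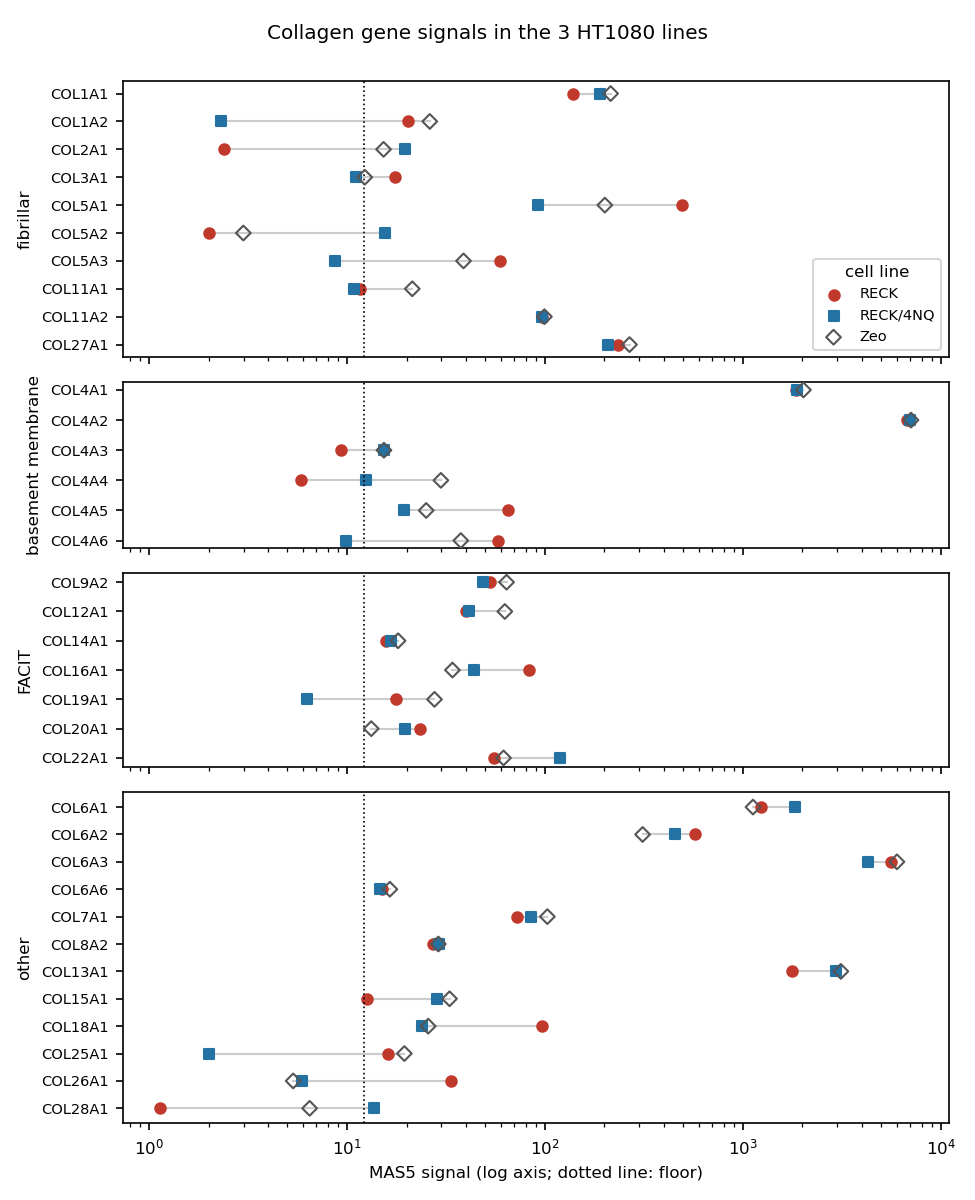
MAS5 signals (horizontal log axis) of the 35 collagen genes that reached the floor on at least 1 array, grouped by type, with a filled circle for RECK, a filled square for RECK/4NQ and an open diamond for Zeo. Lines join the lowest and highest signal of a gene and the dotted line is the floor of 12.2. COL4A1 and COL4A2 differ little between lines, while COL5A1, COL5A3, COL4A6 and COL18A1 show wide gaps between RECK and RECK/4NQ.

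By the brightest probe sets, the type V genes COL5A1 and COL5A3 had the largest folds or bounds of the fibrillar group. COL5A2 did not pass 2-fold. COL5A1 encodes the alpha 1 chain of type V collagen, which nucleates type I fibrils and sets their diameter. Its signal was 493 in RECK, 92.0 in RECK/4NQ and 201 in Zeo, so the lines stood in the order RECK, Zeo, RECK/4NQ. It was 5.36-fold higher in RECK than in RECK/4NQ, 2.46-fold higher in RECK than in Zeo and 2.18-fold lower in RECK/4NQ than in Zeo. These ratios lay 5.91, 3.48 and -2.44 local spreads from the median of genes of like level. Relative to all genes, the log2 ratios were 2.48 over RECK/4NQ and 1.49 over Zeo.

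All 3 probe sets of COL5A1 gave the same order of the lines. The second read 385 in RECK, 69.1 in RECK/4NQ and 165 in Zeo. The dimmest read 169.7 in RECK, 28.9 in RECK/4NQ and 35.0 in Zeo, which puts RECK/4NQ only 1.21-fold below Zeo. In RECK over RECK/4NQ the 3 probe sets gave folds of 5.36, 5.58 and 5.88. The 10 nearest measured genes on the chromosome had median log2 ratios against Zeo of -0.75 in RECK and -0.64 in RECK/4NQ, and of -0.0041 in RECK over RECK/4NQ. Thus the neighbours were below Zeo in both transfected lines, and COL5A1 was above it in RECK and below it in RECK/4NQ. The part of the neighbouring region in the RECK/4NQ value was not tested.

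Across all genes, 20 (0.101%) were at least 2-fold higher in RECK and at least 2-fold lower in RECK/4NQ than in Zeo, and COL5A1 was the one collagen gene among them. The opposite pattern was found for 7 genes (0.0354%), none of them a collagen. The region around the start of COL5A1, from 250 bases before to 50 after it, is shown because COL5A1 had the largest measured fold of any collagen gene between RECK and RECK/4NQ, with the GC box GGGCGG (searched on both strands) in capitals. It is chr9:134641553-134641852 on the plus strand of GRCh38.p14, from RefSeq.
COL5A1: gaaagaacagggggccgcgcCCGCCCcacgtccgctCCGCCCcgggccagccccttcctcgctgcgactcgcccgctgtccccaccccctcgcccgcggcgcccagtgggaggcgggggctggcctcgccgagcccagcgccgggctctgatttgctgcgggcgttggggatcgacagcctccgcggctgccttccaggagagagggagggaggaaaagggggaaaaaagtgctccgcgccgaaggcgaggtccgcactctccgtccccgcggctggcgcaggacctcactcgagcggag
This window held 2 matches to GGGCGG and none to TATAAA or CCAAT on either strand. Of all 35116 RefSeq promoter windows of 300 bases, 45.0% held GGGCGG, 34.6% held CCAAT and 11.5% held TATAAA, and matches of different motifs did not overlap in any collagen window.

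The other type V chains were dimmer. COL5A3, which encodes the alpha 3 chain, read 59.5 in RECK, 8.74 in RECK/4NQ and 38.8 in Zeo. It was below the floor in RECK/4NQ, hence at least 4.87-fold higher in RECK than in RECK/4NQ and at least 3.17-fold lower in RECK/4NQ than in Zeo. RECK and Zeo differed 1.53-fold, with RECK higher. Its second probe set stayed below the floor on every array, at 6.66, 7.67 and 6.86 in RECK, RECK/4NQ and Zeo. COL5A2, the alpha 2 chain that pairs with COL5A1 in the common type V trimer, reached the floor in RECK/4NQ alone, at 15.6, against 2.00 in RECK and 2.99 in Zeo, and was not past 2-fold.

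Type I collagen, the main collagen of skin and bone, is made of COL1A1 and COL1A2 chains. COL1A1 read 139 in RECK, 189 in RECK/4NQ and 215 in Zeo by its brightest probe set. Another probe set read 74.9 in RECK, 85.4 in RECK/4NQ and 257 in Zeo, 3.43-fold lower in RECK and 3.01-fold lower in RECK/4NQ than in Zeo. The remaining 3 COL1A1 probe sets were below the floor in both transfected lines and read 19.7, 22.1 and 46.4 in Zeo, the last of these at least 3.79-fold lower in either line. Thus 2 of the 5 probe sets passed 2-fold, and the brightest did not. All 5 had their highest signal in Zeo. COL1A2 read 20.4 in RECK, 2.31 in RECK/4NQ and 26.2 in Zeo, at least 2.14-fold lower in RECK/4NQ than in Zeo, and this call was lost under 5 of 6 alternative settings.

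By their brightest probe sets, the remaining fibrillar genes did not pass 2-fold in any comparison. COL3A1, which forms fibrils with type I in vessels and skin, lay near the floor at 17.6 in RECK, 11.1 in RECK/4NQ and 12.3 in Zeo. The cartilage chain COL2A1 read 2.38 in RECK, 19.6 in RECK/4NQ and 15.3 in Zeo. COL11A1, a type XI chain, was at 11.7 in RECK, 10.8 in RECK/4NQ and 21.4 in Zeo. The second type XI chain, COL11A2, read 97.0 in RECK, 96.4 in RECK/4NQ and 99.4 in Zeo by its brightest probe set. Its other probe set read 8.78, 46.6 and 66.5 in the same lines. By that probe set RECK was at least 5.43-fold lower than Zeo and at least 3.81-fold lower than RECK/4NQ. COL27A1, a short fibrillar collagen of cartilage, was at 235 in RECK, 209 in RECK/4NQ and 268 in Zeo. In all, 2 of 11 fibrillar genes were higher in RECK than in RECK/4NQ and none lower. In RECK against Zeo 1 was higher and none lower, and in RECK/4NQ against Zeo none was higher and 3 were lower. The shares of all genes higher and lower were 5.77% and 4.48%, 4.03% and 6.71%, and 2.82% and 7.14% in these comparisons.

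**Figure D3:**
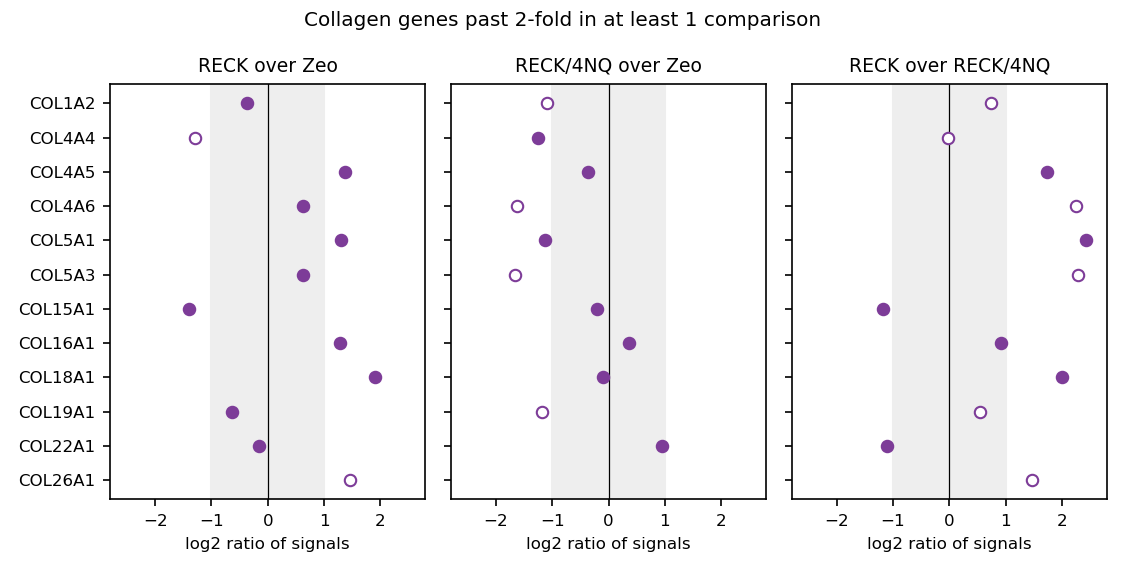
Log2 ratios of MAS5 signals (horizontal axis) for the 12 collagen genes past 2-fold in at least 1 comparison, with 1 panel per comparison. Filled points are ratios of signals at or above the floor on both arrays, open points are bounds with 1 array below the floor, no point means both arrays were below it, and the grey band spans 2-fold in either direction. In RECK over RECK/4NQ the points of COL5A1, COL5A3, COL4A5, COL4A6 and COL18A1 lie between 1.74 and 2.42.

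The 6 type IV genes lie in 3 head-to-head pairs, each pair read outward from a common short region. COL4A1 and COL4A2 encode the chains of the type IV network found in nearly all basement membranes. COL4A3 and COL4A4 with COL4A5 encode that of the kidney glomerulus, and COL4A5 also combines with COL4A6. In the RefSeq table for GRCh38.p14, the starts of COL4A1 and COL4A2 are 127 bases apart, those of COL4A6 and COL4A5 380 bases and those of COL4A4 and COL4A3 419 bases. The windows of 300 bases at these starts overlap by 226, 121 and 82 bases. COL4A6 has a second listed start, and the values here use the start whose window overlaps that of COL4A5. The window of the second start, chrX:108438373-108438672, does not overlap it and is not printed. It was 50.0% G or C, with 1 match to GGGCGG and none to CCAAT or TATAAA. The first 2 pairs are shown because the signals of 1 pair differed between lines and those of the other did not pass 2-fold, with the bases shared by both windows of a pair in capitals. COL4A1 is chr13:110307108-110307407 on the minus strand and COL4A2 chr13:110307034-110307333 on the plus strand. COL4A6 is chrX:108439409-108439708 on the minus strand and COL4A5 chrX:108439588-108439887 on the plus strand.
COL4A1: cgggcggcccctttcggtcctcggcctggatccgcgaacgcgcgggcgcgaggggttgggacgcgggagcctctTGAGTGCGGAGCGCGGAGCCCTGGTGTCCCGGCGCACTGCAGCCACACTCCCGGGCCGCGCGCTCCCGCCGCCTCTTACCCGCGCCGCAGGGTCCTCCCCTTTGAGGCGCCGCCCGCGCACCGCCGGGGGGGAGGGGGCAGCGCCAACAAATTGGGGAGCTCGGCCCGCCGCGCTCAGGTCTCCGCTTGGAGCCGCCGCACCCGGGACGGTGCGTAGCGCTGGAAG
COL4A2: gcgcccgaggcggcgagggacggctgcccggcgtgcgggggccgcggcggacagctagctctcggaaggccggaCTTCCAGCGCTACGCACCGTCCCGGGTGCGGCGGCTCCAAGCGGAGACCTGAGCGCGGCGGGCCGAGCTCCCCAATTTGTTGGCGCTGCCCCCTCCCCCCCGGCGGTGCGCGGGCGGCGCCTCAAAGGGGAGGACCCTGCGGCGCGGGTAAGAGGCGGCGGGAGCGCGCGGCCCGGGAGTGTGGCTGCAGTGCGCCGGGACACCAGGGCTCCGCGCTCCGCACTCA
COL4A6: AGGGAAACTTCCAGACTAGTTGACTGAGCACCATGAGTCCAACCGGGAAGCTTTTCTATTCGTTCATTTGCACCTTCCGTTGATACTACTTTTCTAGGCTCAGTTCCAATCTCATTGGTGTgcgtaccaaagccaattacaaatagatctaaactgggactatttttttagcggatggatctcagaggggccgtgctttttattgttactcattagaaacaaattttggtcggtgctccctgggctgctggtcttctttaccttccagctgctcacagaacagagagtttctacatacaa
COL4A5: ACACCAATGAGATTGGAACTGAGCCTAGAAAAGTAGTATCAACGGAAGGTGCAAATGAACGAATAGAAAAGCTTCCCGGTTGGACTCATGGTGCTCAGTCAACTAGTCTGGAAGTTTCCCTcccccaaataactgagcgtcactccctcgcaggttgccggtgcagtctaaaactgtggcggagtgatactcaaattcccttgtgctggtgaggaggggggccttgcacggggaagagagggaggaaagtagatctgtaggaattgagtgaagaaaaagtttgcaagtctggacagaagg
The windows of COL4A1 and COL4A2 were 76.7% and 77.7% G or C, and those of COL4A6 and COL4A5 43.7% and 49.3%. Those of COL4A4 and COL4A3, not printed here, were 74.0% and 67.7%. None of the 4 printed windows held TATAAA. The stretch shared by COL4A1 and COL4A2 had 1 match each to CCAAT and GGGCGG on either strand. That shared by COL4A6 and COL4A5 had 2 matches to CCAAT and none to GGGCGG. These matches describe the letters of the windows and nothing about binding.

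Transcripts of the common pair were alike in all lines. COL4A1 read 1855 in RECK, 1869 in RECK/4NQ and 2024 in Zeo, and COL4A2 read 6782, 6973 and 7074 in the same lines. The largest fold among the 3 comparisons was 1.09 for COL4A1 and 1.04 for COL4A2, within 0.60 local spreads of the median of genes of like level. Their second probe sets read 711, 537 and 803 for COL4A1 and 1265, 1227 and 1313 for COL4A2 in RECK, RECK/4NQ and Zeo. The 10 nearest measured genes had a median log2 ratio of -0.44 in RECK against Zeo and of -0.49 against RECK/4NQ, below the values of this pair.

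The pair on the X chromosome was higher in RECK than in RECK/4NQ. COL4A5 read 64.9 in RECK, 19.4 in RECK/4NQ and 25.1 in Zeo, 3.34-fold higher in RECK than in RECK/4NQ and 2.58-fold higher than in Zeo. Its 2 RECK ratios lay 2.58 and 2.62 local spreads from the median. COL4A6 read 58.1 in RECK, 9.93 in RECK/4NQ and 37.6 in Zeo, at least 4.75-fold higher in RECK than in RECK/4NQ and at least 3.07-fold lower in RECK/4NQ than in Zeo. Both genes thus had their highest signal in RECK and their lowest in RECK/4NQ. Genes near them had median log2 ratios of 0.031 in RECK and -0.11 in RECK/4NQ against Zeo, and of 0.053 in RECK over RECK/4NQ.

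Dimmer probe sets did not show this difference. The second COL4A5 probe set read 3.27 in RECK, 14.0 in RECK/4NQ and 21.5 in Zeo, lowest in RECK. Without probe sets of the kinds that can match several transcripts, COL4A5 is read from that probe set, and its log2 ratios turn to -0.81 in RECK against Zeo and -0.19 against RECK/4NQ. The other 2 COL4A6 probe sets were below the floor in both transfected lines and read 17.3 and 4.91 in Zeo.

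The third pair lay close to the floor. COL4A3 read 9.37 in RECK, 15.4 in RECK/4NQ and 15.4 in Zeo and did not pass 2-fold. COL4A4 read 5.89 in RECK, 12.5 in RECK/4NQ and 29.8 in Zeo, at least 2.44-fold lower in RECK and 2.39-fold lower in RECK/4NQ than in Zeo. Both calls on COL4A4 were lost under a floor at the 60th percentile and with probe sets averaged. Of the 6 type IV genes, 2 were higher and none lower in RECK than in RECK/4NQ, beside 5.77% and 4.48% of all genes.

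**Figure D4:**
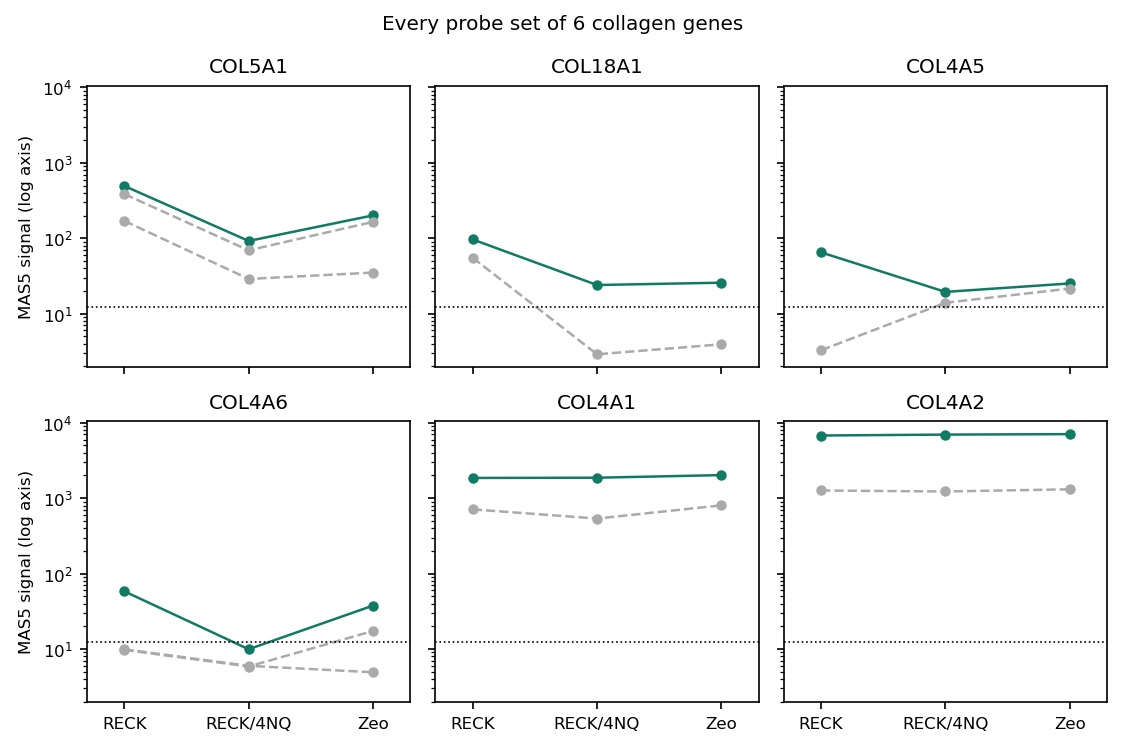
MAS5 signal (vertical log axis) of each probe set in RECK, RECK/4NQ and Zeo for 6 collagen genes, 1 panel per gene. The solid line is the brightest probe set, dashed lines are the others, and the dotted line is the floor of 12.2. All 3 COL5A1 probe sets and both COL18A1 probe sets are highest in RECK, the lines of COL4A1 and COL4A2 are nearly flat, and the dim COL4A5 probe set is lowest in RECK.

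Among the FACITs, COL16A1 and COL22A1 differed in opposite directions. COL16A1, found where fibrils meet basement membranes and cells, read 82.9 in RECK, 43.9 in RECK/4NQ and 34.1 in Zeo. It was 2.43-fold higher in RECK than in Zeo, 3.12 local spreads from the median, and 1.89-fold higher than in RECK/4NQ. Genes next to it were also higher in RECK, with median log2 ratios of 0.43 over Zeo and 0.69 over RECK/4NQ, and their part in the result was not tested. COL22A1, a collagen of tissue junctions such as that of muscle and tendon, read 55.5 in RECK, 119.7 in RECK/4NQ and 61.8 in Zeo. It was 2.16-fold lower in RECK than in RECK/4NQ.

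Each probe set of COL22A1 was highest in RECK/4NQ. The second read 26.0 in RECK, 63.5 in RECK/4NQ and 47.3 in Zeo, and the third 18.6, 37.1 and 20.3. Over Zeo the brightest one was 1.94-fold higher in RECK/4NQ as deposited, with a log2 ratio of 1.07 relative to all genes. COL19A1, a rare FACIT of basement membrane zones, read 17.8 in RECK, 6.26 in RECK/4NQ and 27.7 in Zeo, at least 2.26-fold lower in RECK/4NQ than in Zeo.

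The other FACIT genes with signal did not pass 2-fold. COL12A1 and COL14A1 encode chains that coat type I fibrils. COL12A1 read 39.9 in RECK, 41.2 in RECK/4NQ and 62.7 in Zeo, while its second probe set was highest in RECK/4NQ, at 35.1, 56.2 and 20.5 in the same lines, 2.74-fold above Zeo. COL14A1 was at 15.7 in RECK, 16.6 in RECK/4NQ and 18.1 in Zeo. COL9A2, a chain of the cartilage FACIT type IX, was at 52.6 in RECK, 48.5 in RECK/4NQ and 64.0 in Zeo, and COL20A1 at 23.3, 19.6 and 13.3. Of 10 FACIT genes, none was higher and 1 was lower in RECK than in RECK/4NQ, beside 5.77% and 4.48% of all genes.

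Within the other types, the multiplexins COL18A1 and COL15A1 went in opposite directions. Both are basement membrane collagens with heparan or chondroitin sulfate side chains, and the end of the COL18A1 chain is released as endostatin. COL18A1 read 96.3 in RECK, 24.0 in RECK/4NQ and 25.7 in Zeo. RECK stood apart, 4.02-fold above RECK/4NQ and 3.74-fold above Zeo, while RECK/4NQ and Zeo differed 1.07-fold. The ratios lay 3.24 and 4.24 local spreads from the median. Its second probe set read 55.0 in RECK, 2.89 in RECK/4NQ and 3.92 in Zeo, at least 4.50-fold higher in RECK than in either. COL15A1, with 1 probe set, read 12.6 in RECK, 28.5 in RECK/4NQ and 33.0 in Zeo, 2.27-fold lower in RECK than in RECK/4NQ and 2.62-fold lower than in Zeo, at -1.78 and -1.74 local spreads.

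A gene was taken to stand apart on 1 array if all signals reached the floor, 1 line lay 2-fold or more above or below both others, and those were within 1.5-fold of each other. Of 12411 genes measured on all arrays, 0.910% stood apart above the others in RECK and 1.74% below. The collagen genes that did so were COL18A1 and COL4A5 above and COL15A1 below, of 22 measured on all arrays. No collagen gene stood apart in RECK/4NQ, where 0.419% of all genes did so above and 1.71% below, or in Zeo, where 1.13% did so above and 0.717% below.

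Type VI collagen, a beaded filament around cells, is assembled from COL6A1, COL6A2 and COL6A3 chains. None passed 2-fold. COL6A1 read 1234 in RECK, 1836 in RECK/4NQ and 1125 in Zeo. COL6A2 read 571 in RECK, 454 in RECK/4NQ and 312 in Zeo, with a log2 ratio of 1.07 for RECK over Zeo relative to all genes. COL6A3 read 5582 in RECK, 4305 in RECK/4NQ and 6007 in Zeo. COL6A1 was thus highest in RECK/4NQ, COL6A2 in RECK and COL6A3 in Zeo. The second COL6A2 probe set was 2.03-fold higher in RECK than in Zeo and 2.53-fold higher than in RECK/4NQ, at 226 in RECK, 89.0 in RECK/4NQ and 111 in Zeo, and the later-described chain COL6A6 was at 15.0, 14.7 and 16.5.

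COL13A1, a transmembrane collagen of cell adhesion sites and the neuromuscular junction, read 1769.5 in RECK, 2947 in RECK/4NQ and 3127 in Zeo. It was 1.77-fold lower in RECK than in Zeo, at -2.10 local spreads, and not past 2-fold. Its second probe set read 207 in RECK, 323 in RECK/4NQ and 446 in Zeo, 2.15-fold lower in RECK than in Zeo, and the third 132, 212 and 197. All 3 were lowest in RECK. COL7A1, the anchoring fibril collagen of skin, was at 72.1 in RECK, 84.8 in RECK/4NQ and 103 in Zeo, and the network collagen COL8A2 at 27.2, 29.1 and 28.9.

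COL26A1, a matrix collagen with an EMI domain, was at 33.7 in RECK, 5.93 in RECK/4NQ and 5.35 in Zeo, at least 2.75-fold higher in RECK than in either. Its second probe set was below the floor on all arrays. COL25A1, a transmembrane collagen of neurons, read 16.1 in RECK, 2.01 in RECK/4NQ and 19.5 in Zeo, and COL28A1 1.14, 13.7 and 6.48, both not past 2-fold. Of 16 genes of other types, 2 were higher and 1 lower in RECK than in RECK/4NQ. In RECK against Zeo 2 were higher and 1 lower, and none passed 2-fold in RECK/4NQ over Zeo. The shares of all genes higher and lower were 5.77% and 4.48%, 4.03% and 6.71%, and 2.82% and 7.14% in these comparisons.

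Other probe sets of the called genes gave a partial check. For RECK over RECK/4NQ, 6 further probe sets of the 8 called genes had a signal at or above the floor on 1 of both arrays at least. Of these, 5 went in the same direction, 4 also passed 2-fold, and 1 went the opposite way. For RECK over Zeo the numbers were 4, 3 and 1 of 5, and for RECK/4NQ over Zeo 6, 1 and 0 of 6. Probe sets below the floor on both arrays were not counted. In RECK over RECK/4NQ these were all the further ones of COL5A3, COL4A6 and COL26A1. The 5 in the same direction there belonged to COL5A1, COL18A1 and COL22A1, and the opposite one to COL4A5.

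Genes that act on collagen chains were read from a list of 67 genes, of which 65 had a single-symbol probe set. In RECK over RECK/4NQ 8 were higher, 3 lower and 54 not past 2-fold. For RECK over Zeo the counts were 2 higher, 7 lower and 56 not past 2-fold, and for RECK/4NQ over Zeo 1 higher, 3 lower and 61 not past 2-fold. The higher and lower shares were 12.3% and 4.62% for RECK over RECK/4NQ, beside 5.77% and 4.48% of all genes. They were 3.08% and 10.8% for RECK over Zeo, beside 4.03% and 6.71%, and 1.54% and 4.62% for RECK/4NQ over Zeo, beside 2.82% and 7.14%. The medians minus that of all genes were 0.16, 0.15 and -0.079 in these comparisons, over 55 genes at or above the floor in mean level.

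Propeptide processing held the largest differences above Zeo. ADAMTS2, the proteinase that removes the amino-terminal propeptide of procollagens, read 203 in RECK, 28.3 in RECK/4NQ and 20.6 in Zeo. It was 7.20-fold higher in RECK than in RECK/4NQ and 9.88-fold higher than in Zeo. A second probe set read 113 in RECK, 0.780 in RECK/4NQ and 2.68 in Zeo, while the third read 42.1, 28.9 and 42.6. In RECK/4NQ and Zeo the third was brighter than the probe set used for the folds. PCOLCE, which enhances removal of the carboxy-terminal propeptide, read 271 in RECK, 55.4 in RECK/4NQ and 58.9 in Zeo, 4.90-fold and 4.60-fold higher in RECK. PCOLCE2, of the same function, was 2.09-fold lower in RECK than in Zeo, at 23.9 in RECK, 43.0 in RECK/4NQ and 49.9 in Zeo. Of 8 such genes 2 were higher and none lower in RECK than in RECK/4NQ, beside 5.77% and 4.48% of all genes.

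Among modifying enzymes and chaperones, 2 of 17 were higher in RECK than in RECK/4NQ and none lower, beside 5.77% and 4.48% of all genes. None passed 2-fold against Zeo in either line by its brightest probe set. P3H1, a prolyl 3-hydroxylase, read 1004 in RECK, 502 in RECK/4NQ and 645 in Zeo, 2.00-fold apart in RECK over RECK/4NQ. The other was P4HA3, a prolyl 4-hydroxylase subunit too dim for the naming rule and named after its values were seen, at 25.3 in RECK and 5.74 in RECK/4NQ. A dimmer probe set of TMEM38B, on the same list, read 7.30 in RECK, 13.9 in RECK/4NQ and 37.6 in Zeo. It was past 2-fold lower than Zeo in both transfected lines. A dimmer probe set of P4HA2 read 75.1, 38.3 and 76.8 in the same lines, 2-fold lower in RECK/4NQ than in Zeo. Of 6 secretion genes 1 was higher and none lower in RECK than in RECK/4NQ, beside 5.77% and 4.48% of all genes. These counts are by brightest probe sets, and none passed 2-fold against Zeo. A dimmer probe set of KLHL12, another secretion gene, read 33.8 in RECK, 78.8 in RECK/4NQ and 74.7 in Zeo, past 2-fold lower in RECK than in both. The gene counted was CREB3L1, a membrane-bound transcription factor that drives collagen secretion genes in bone cells. It read 663 in RECK, 216 in RECK/4NQ and 389.7 in Zeo, 3.07-fold higher in RECK than in RECK/4NQ, and its second probe set read 104, 43.7 and 75.7 in the same lines.

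The order of the lines for CREB3L1 was that of COL5A1. The mesenchymal markers S100A4 and CALD1, at 94.4 and 91.3 in Zeo, also had it. The share of all genes with this order was not counted. BGN, the small proteoglycan biglycan that binds fibrils, had this order too, at 113 in RECK, 35.8 in RECK/4NQ and 60.2 in Zeo, 3.16-fold higher in RECK than in RECK/4NQ. DCN, the related decorin, read 30.2 in RECK, 36.7 in RECK/4NQ and 60.5 in Zeo, 2.01-fold lower in RECK than in Zeo. Of 11 fibril partners 1 was higher and none lower in RECK than in RECK/4NQ, beside 5.77% and 4.48% of all genes.

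LOX, the enzyme that starts collagen cross-links, was lower than in Zeo in both transfected lines. It read 141 in RECK, 169.8 in RECK/4NQ and 453 in Zeo, 3.22-fold and 2.67-fold lower. By brightest probe sets, its other 4 family members did not pass 2-fold. A dimmer LOXL4 probe set read 10.6 in RECK, 34.7 in RECK/4NQ and 9.11 in Zeo, and a dimmer LOXL2 probe set 12.4, 27.8 and 6.66. Both were past 2-fold higher in RECK/4NQ than in either other line. All 3 LOX probe sets were lowest in the transfected lines, the second at 28.4 in RECK, 27.6 in RECK/4NQ and 128 in Zeo.

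Collagen receptors showed both directions. ITGA10, the integrin alpha chain of cartilage cells, read 109 in RECK, 436 in RECK/4NQ and 265 in Zeo, 4.01-fold lower in RECK than in RECK/4NQ. ITGA11, the integrin alpha chain of fibroblasts for fibrillar collagen, read 73.8 in RECK, 89.7 in RECK/4NQ and 171 in Zeo, 2.32-fold lower in RECK than in Zeo. DDR2, a receptor tyrosine kinase for fibrillar collagen, read 44.4 in RECK, 68.5 in RECK/4NQ and 28.9 in Zeo, 2.37-fold higher in RECK/4NQ than in Zeo. Its probe sets disagreed, since a second was highest in Zeo, at 34.2 in RECK, 43.4 in RECK/4NQ and 55.5 in Zeo. Like the brightest, the other 2 were lowest in Zeo, at 55.2, 52.4 and 21.8 and at 28.4, 26.0 and 5.47 in the same lines. OSCAR, an immune receptor, was at 9.99 in RECK, 32.2 in RECK/4NQ and 79.2 in Zeo, and LAIR1, another, at 48.3, 24.1 and 45.0. Of 10 receptors, 2 were higher and 2 lower in RECK than in RECK/4NQ, beside 5.77% and 4.48% of all genes. Of 8 collagen-degrading enzymes, 1 was lower and none higher in RECK than in RECK/4NQ, beside 4.48% and 5.77% of all genes. In RECK against Zeo 1 was also lower and none higher, beside 6.71% and 4.03%, and none passed 2-fold in RECK/4NQ over Zeo. The gene was MMP9 in both, at 203 in RECK, 2306 in RECK/4NQ and 1947 in Zeo.

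**Figure D5:**
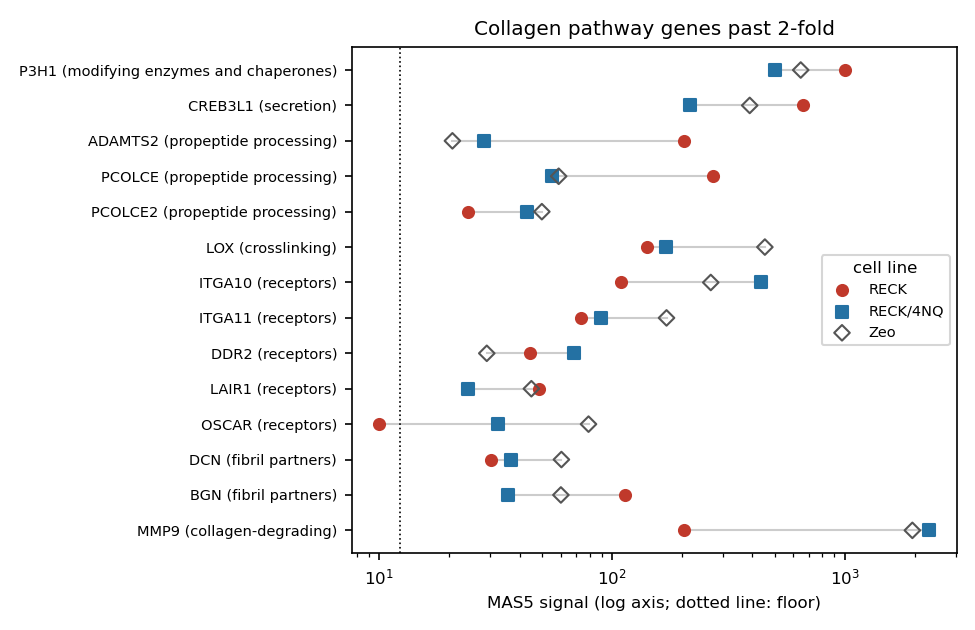
MAS5 signals (horizontal log axis) of the 14 collagen pathway genes past 2-fold in at least 1 comparison whose mean level reached the 60th percentile of all signals, with a filled circle for RECK, a filled square for RECK/4NQ and an open diamond for Zeo. The dotted line is the floor of 12.2. ADAMTS2 and PCOLCE are highest in RECK with RECK/4NQ near Zeo, LOX is low in both transfected lines, and MMP9 is lowest in RECK.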

How the data were processed

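RNA of 3 HT1080 lines was measured on 3 expression arrays, 1 per line. The authors deposited 1 linear intensity per probe set and array, a MAS5 signal per the submitters' processing notes. The MAS5 version and target intensity are not stated there. MAS5 subtracts a mismatch estimate, so dim signals are noisy. The number of arrays limits the precision, and with 1 array per group no test was possible.

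Of 54675 probe sets, 62 controls were left out, and those with several symbols (1801) or none listed (11721) named no gene. All 43 collagen symbols matched the RefSeq table of GRCh38, which served for names and neighbours (up to 5 measured genes on each side, collagens left out). The floor was the 40th percentile of all signals, and log2 ratios were computed in Python 3.11.15 with numpy 2.4.6 and pandas 2.3.3. Local spread was 1.4826 times the median absolute deviation.

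Every collagen gene that reached the floor on any array is named. Pathway genes are named if past 2-fold and their mean level reached the 60th percentile, at most 3 per list and direction. Some others are named for a dimmer probe set past 2-fold, chosen after its values were seen. The members and lists were chosen with earlier results of these data known. The alternatives were 2 other floors, 2 normalisations, averaged probe sets, and leaving out probe sets ending in _s_at or _x_at.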

Additional observations from a re-analysis of the deposited data

Results flagged for a closer look

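COL5A1 met the criterion of opposite changes against Zeo in both transfected lines. Its signal was 493 in RECK, 92.0 in RECK/4NQ and 201 in Zeo, at least 2-fold above Zeo in the first line and at least 2-fold below it in the second. The log2 ratios differed by 2.42. With 1 array per line this difference was not tested, and both ratios share the Zeo array. The RECK/4NQ call was lost with median centring and with probe sets averaged.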

How the results depend on the processing

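No paired analysis was possible because each group has 1 array. Of 21 calls on single collagen genes, 6 kept their direction and stayed past 2-fold under every alternative that gave a value: COL5A1 and COL18A1 in RECK over Zeo and over RECK/4NQ, COL16A1 in RECK over Zeo, and COL22A1 in RECK over RECK/4NQ. COL18A1 has no value without _s_at and _x_at probe sets. That setting left 37 collagen genes, turned COL4A5 to -0.81 (RECK over Zeo) and -0.19 (RECK over RECK/4NQ), and gave 4 collagen genes lower in RECK than in Zeo and a relative median of -0.22 for RECK/4NQ over Zeo. With it, 3 pathway genes were lower in RECK than in Zeo and 5 higher in RECK than in RECK/4NQ, of 51. Of all genes in that setting, 6.93% were lower in RECK than in Zeo and 5.77% higher in RECK than in RECK/4NQ. Under a floor at the 60th percentile, 0 collagen genes were lower in RECK than in Zeo, beside 2.66% of all genes. In RECK/4NQ 1 was lower than in Zeo, beside 2.31%. In RECK over RECK/4NQ 1 was lower, beside 1.93%, and 5 pathway genes were higher, beside 2.37%. The relative median for RECK/4NQ over Zeo was 0.010 under this floor. Under a floor at the 20th percentile, 4 collagen genes were lower in RECK than in Zeo, beside 12.3% of all genes. RECK/4NQ had 2 collagen genes and 2 pathway genes above Zeo, beside 7.16%. In RECK over RECK/4NQ 11 collagen genes were higher and 6 lower, beside 11.7% and 9.55%. With probe sets averaged, RECK had 3 collagen genes above Zeo and 3 above RECK/4NQ, beside 2.69% and 3.61% of all genes. RECK/4NQ had 2 collagen genes below Zeo, beside 4.00%, and 0 pathway genes above it, beside 1.65%. In RECK 5 pathway genes were above RECK/4NQ. Quantile normalisation and median centring each put 1 collagen gene of RECK/4NQ and 4 pathway genes of RECK above Zeo. The shares of all genes were 3.94% and 3.90% for RECK/4NQ and 5.40% and 5.06% for RECK. The cause of the shifts between settings was not tested. Calls on dim genes (COL1A2, COL4A4, COL4A6, COL5A3, COL15A1, COL19A1, COL26A1) depend on where the floor lies.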

Other observations

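Several collagen genes had probe sets that disagreed. COL27A1 had 5 probe sets with signal. The third in brightness read 81.7 in RECK, 92.0 in RECK/4NQ and 41.2 in Zeo, while the fifth read 39.0 in RECK, 6.51 in RECK/4NQ and 57.0 in Zeo. Thus 1 probe set was highest in RECK/4NQ and the other lowest there. COL6A1 was 1.63-fold above Zeo in RECK/4NQ by each of its 2 brightest probe sets, and the fourth read 34.6 in RECK, 58.9 in RECK/4NQ and 83.2 in Zeo.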
